A study of Mus musculus with 6 samples.

Results

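Histone genes, from the copies that are transcribed with DNA replication to the testis variants, were followed in RNA recovered by immunoprecipitation of PNMA4 from mouse testis. The set held every gene whose symbol has the current form of a histone name (H1f, H2a, H2b, H3c or H3f, H4c or H4f followed by a number, or the older Hist form) and at least 1 count. It comprised 86 genes of 34610 gene IDs with a count. A further 16 symbols of this form had no count in any library, among them H2ab2, 7 H2al1 genes and H3c13. By symbol, 57 members were replication-dependent, 7 were replacement variants and 20 were germline variants. The 2 others were H3f3aos, an antisense RNA at the H3f3a locus that enters by its symbol and encodes no histone, and H2bw2. The symbol rule leaves out a few histone genes with other names, such as H2ax and Macroh2a1.

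The 6 libraries came from lysates of 8 testes each, taken from mice at 3 months of age. PNMA4, listed as Moap1 in the gene table, is a protein with a capsid-like domain derived from a retrotransposon. Material that had collected above 70% sucrose was separated on iodixanol, and the antibody was applied to fractions 8 and 9. There were 3 wild type (C57BL/6J) libraries and 3 libraries lacking PNMA4, of which replicates 1 and 2 were from Pnma4 KO mice and replicate 3 was from a Pnma1, Pnma4 DKO (double knockout) preparation. The labels give the knockouts by gene name alone, every library went through the same antibody, and the double knockout is a single library. RNA of the starting lysates was not used here, and levels therefore describe the precipitate alone. Counts of Moap1 were 7, 26 and 27 in wild type replicates 1 to 3 and 0 in each library lacking PNMA4. For Pnma1 the wild type libraries held 76, 140 and 139 counts, the Pnma4 KO libraries 78 and 152, and the double knockout 0.

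Histones package DNA into nucleosomes, and linker histone H1 binds where the DNA enters and leaves. Replication-dependent histone genes lie in clusters, are transcribed in S phase, and give mRNAs that end in a stem-loop instead of a poly(A) tail. Replacement variants such as H3.3 are made throughout the cell cycle from polyadenylated mRNAs. Male germ cells add variants of their own, and in late spermatids most histones are exchanged for transition proteins and then protamines. The sources used here do not say whether polyadenylated RNA was selected, whether strand was kept, or how reads that map to several places were counted. Many replication-dependent and H2al copies are almost identical, so their individual counts are uncertain, and H3f3a and H3f3aos cannot be told apart on reads that lie in both without strand.

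The upstream sequences of the most read germline H1, H2A, H2B and H3 gene are shown with that of the most read replication-dependent H1 gene. They set H1f7, which lies apart from the histone clusters, beside H1f1, H2ac1 and H2bc1 of the chromosome 13 cluster. H3f4 lies on chromosome 11. The 120 bases before the annotated start are given 5′ to 3′ on the gene's strand, from RefSeq on GRCm38.p6. Capitals mark TATAAA and CCAAT, or their reverse complements TTTATA and ATTGG.
H1f7, chr15:98257308-98257427, reverse strand: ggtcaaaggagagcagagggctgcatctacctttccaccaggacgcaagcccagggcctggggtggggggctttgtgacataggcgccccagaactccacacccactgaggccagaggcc
H1f1, chr13:23763548-23763667, forward strand: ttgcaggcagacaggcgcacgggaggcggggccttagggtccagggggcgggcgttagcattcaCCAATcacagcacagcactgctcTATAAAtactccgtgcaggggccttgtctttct
H2ac1, chr13:23934317-23934436, forward strand: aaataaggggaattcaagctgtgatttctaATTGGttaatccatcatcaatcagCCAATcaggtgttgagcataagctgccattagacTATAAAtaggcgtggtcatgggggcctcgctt
H2bc1, chr13:23934157-23934276, reverse strand: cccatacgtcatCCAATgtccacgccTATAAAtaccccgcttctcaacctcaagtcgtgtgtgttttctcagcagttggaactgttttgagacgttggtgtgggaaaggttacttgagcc
H3f4, chr11:58961591-58961710, forward strand: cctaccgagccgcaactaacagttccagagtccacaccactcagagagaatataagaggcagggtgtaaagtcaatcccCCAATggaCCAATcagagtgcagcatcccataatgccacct
H1f7, a linker variant of spermatids, held neither motif in this window. H1f1, a replication-dependent linker gene, had CCAAT beginning 56 bases and TATAAA 33 bases before its start. H2ac1 and H2bc1 encode the testis forms of H2A and H2B and are transcribed away from each other, with starts 280 bases apart. H2ac1 had ATTGG at 90, CCAAT at 66 and TATAAA at 32 bases before its start. In H2bc1 these motifs lay farther from the annotated start, with CCAAT at 108 and TATAAA at 94 bases before it. H3f4, the testis H3, had CCAAT at both 41 and 33 bases before its start. H2ac25, H2bc21 and H3c1 had no entry in the promoter table.

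Promoter entries were found for 74 of the 86 members. In the 250 bases before the start, on both strands, TATAAA occurred in 54.2% of 48 replication-dependent promoters, 15.8% of 19 germline promoters and 13.0% of all 27025 promoters. CCAAT occurred in 81.2%, 42.1% and 34.5% of the same groups. Within the replication-dependent genes the H4 promoters differed in content from the rest, with CCAAT in 27.3% of 11, whereas all 5 H1, 13 H2A and 11 H2B promoters held it. The octamer ATTTGCAT, described as a regulatory element of H2B genes, occurred in 36.4% of 11 H2B and 38.5% of 13 H2A promoters and in 1.61% of all promoters. Divergent H2A and H2B genes share one intergenic stretch, so these entries are not independent. The cyclic AMP response element TGACGTCA was in 8.33% of replication-dependent promoters, in none of the 19 germline promoters and in 1.62% of all. These are matches of letters in a window and not measured binding.

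Histone reads were a small part of every library, and smallest in the double knockout before scaling. They made up 0.0678% ± 0.0032 of all counts in wild type (SD, n = 3) and 0.0656% ± 0.00737 in libraries lacking PNMA4 (SD, n = 3). The double knockout had the lowest share, 0.0571% (95% Wilson interval of read sampling alone, 0.0550 to 0.0593%), while the other 5 libraries ran from 0.0643 to 0.0706%. Total counts ran from 3138657 to 6367930 per library. TMM factors, which adjust library sizes so that most genes are level, ran from 1.01 to 1.29 in those 5 libraries and stood at 0.628 in the double knockout. Levels below are counts relative to the scaled library size (CPM). On that scale the double knockout had the highest summed histone level, 912.9 CPM against 552.8 to 691.8 CPM, so its rank turned with the scaling.

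Germline variants took 50.2% of the summed histone CPM, replacement variants 33.8% and replication-dependent genes 15.3%. The 5 members with most reads, H1f7, H3f3b, H1f6, H2bc1 and H3f3a, together held 67.0%. Many members of the large families had few reads: 35 of the 57 replication-dependent genes and 11 of the 20 germline variants had a mean under 1 CPM. The medians were 0.763 and 0.286 CPM, beside 11.2 CPM for the median tested gene. Per kilobase of gene span, among the 69 members under 1500 bases, H2bc1 stood first at 146 ± 69.3 CPM per kb (SD, n = 6). H1f7 followed at 111 ± 27.3 and H1f6 at 92.4 ± 23.6 CPM per kb (SD, n = 6). H2bc1 was above H1f6 in 6 of 6 libraries and above H1f7 in 4 of 6, and H1f7 above H1f6 in 4 of 6. Next came H3f4 at 32.2 ± 17.2 and the replication-dependent H1f1 at 27.3 ± 7.65 CPM per kb. The germline H2A and H2B pair was unequal, with H2bc1 9.29 times as high per kb as H2ac1.

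**Figure D1:**
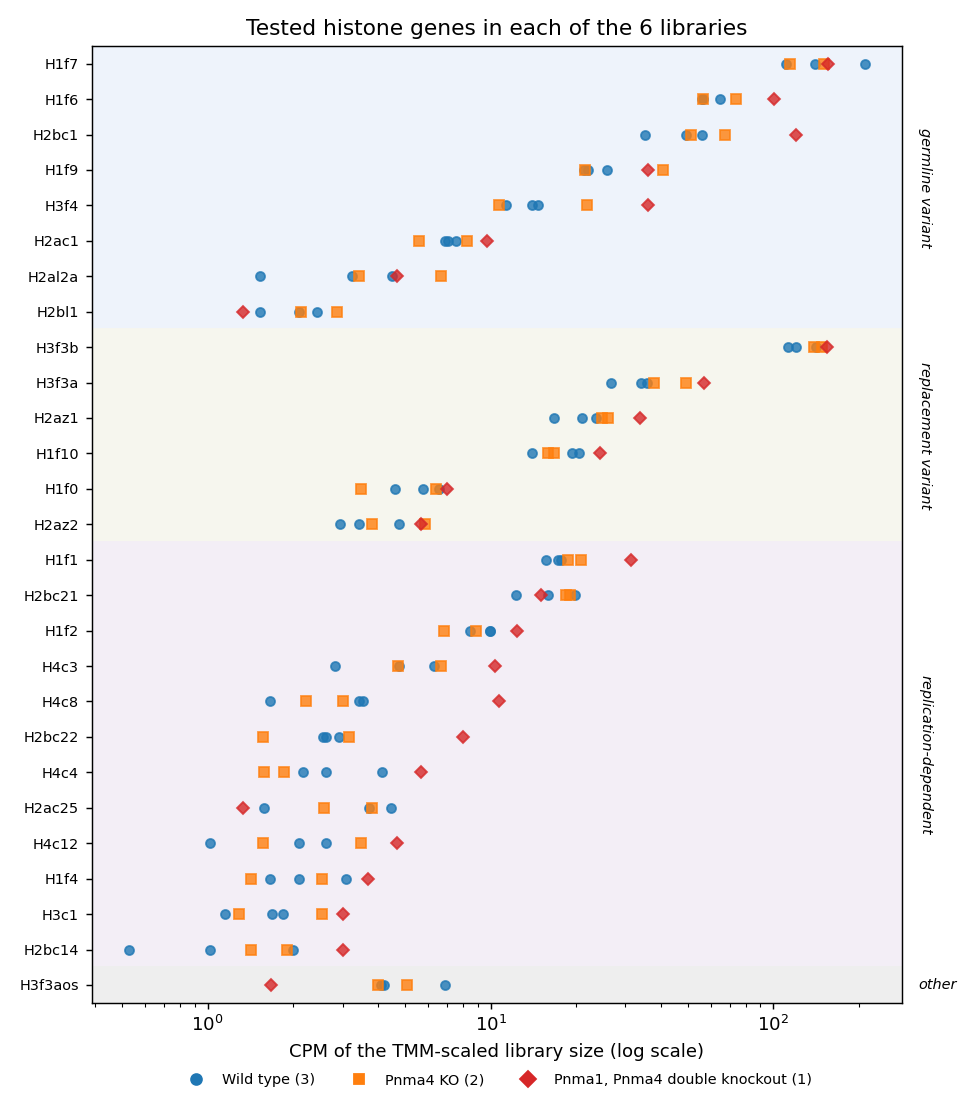
CPM (log scale) of the 27 histone genes that passed the filter on low counts, with 1 point per library and genes grouped by class. Wild type and Pnma4 KO points intermingle in most rows, and the double knockout lies at the right in 19 of the 27.

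The comparison of wild type with libraries lacking PNMA4 asks which RNA differs between the precipitates. Without RNA of the starting lysates, recovery through PNMA4 and RNA content of the tissue cannot be told apart. No histone gene was called higher or lower in wild type. Of the 86 members, 27 passed the filter on low counts and were tested, of which 12 were replication-dependent, 8 germline, 6 replacement variants and 1 the antisense RNA. edgeR's quasi-likelihood test with Benjamini-Hochberg adjustment over 13413 genes gave 0 of 27 members in either direction, with every adjusted p at 1.00. Over all genes, 3 were called higher in wild type (0.0224%) and 5 lower (0.0373%). At an unadjusted p under 0.05 there were 3 members in edgeR (11.1%, beside 2.92% of all genes), 3 in DESeq2 (11.1%, beside 1.72%) and 2 in limma-voom (7.41%, beside 5.32%). None of these tools called a member after adjustment. The 95% interval stayed within 1 log2 unit of 0 for 12 of the 27 members, compared with 71.1% of all genes, and for the other members it reached past a 2-fold change.

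Estimates leaned below 0. Of the 27 members, 22 (81.5%) had a negative log2 fold change, meaning more in libraries lacking PNMA4, against 47.9% of all genes tested. Variant members are here all members that are not replication-dependent, with H3f3aos included and H2bw2 in sums alone. The median was -0.46 for replication-dependent members and -0.37 for variant members, beside 0.01 for all genes. Without the double knockout library these medians were -0.09 and -0.25, and 16 of the 27 (59.3%) were negative, against 47.6% of all genes. Without wild type replicate 2 the replication-dependent median was -0.28, and without Pnma4 KO replicate 2 it was -0.74. With no scaling factors the median of all genes moved to 0.31 and the class medians to -0.10 and -0.004, that is 0.41 and 0.32 below the median gene.

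On the TMM scale the groups did not overlap in 3 members, H3f3a, H2az1 and H1f1, all lower in every wild type library. As shares of unscaled counts the groups overlapped in each of these 3. No tested member was higher in every wild type library on the TMM scale. Over all tested genes, on the same scale, 3.41% were separated with wild type below and 3.28% with wild type above.

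**Figure D2:**
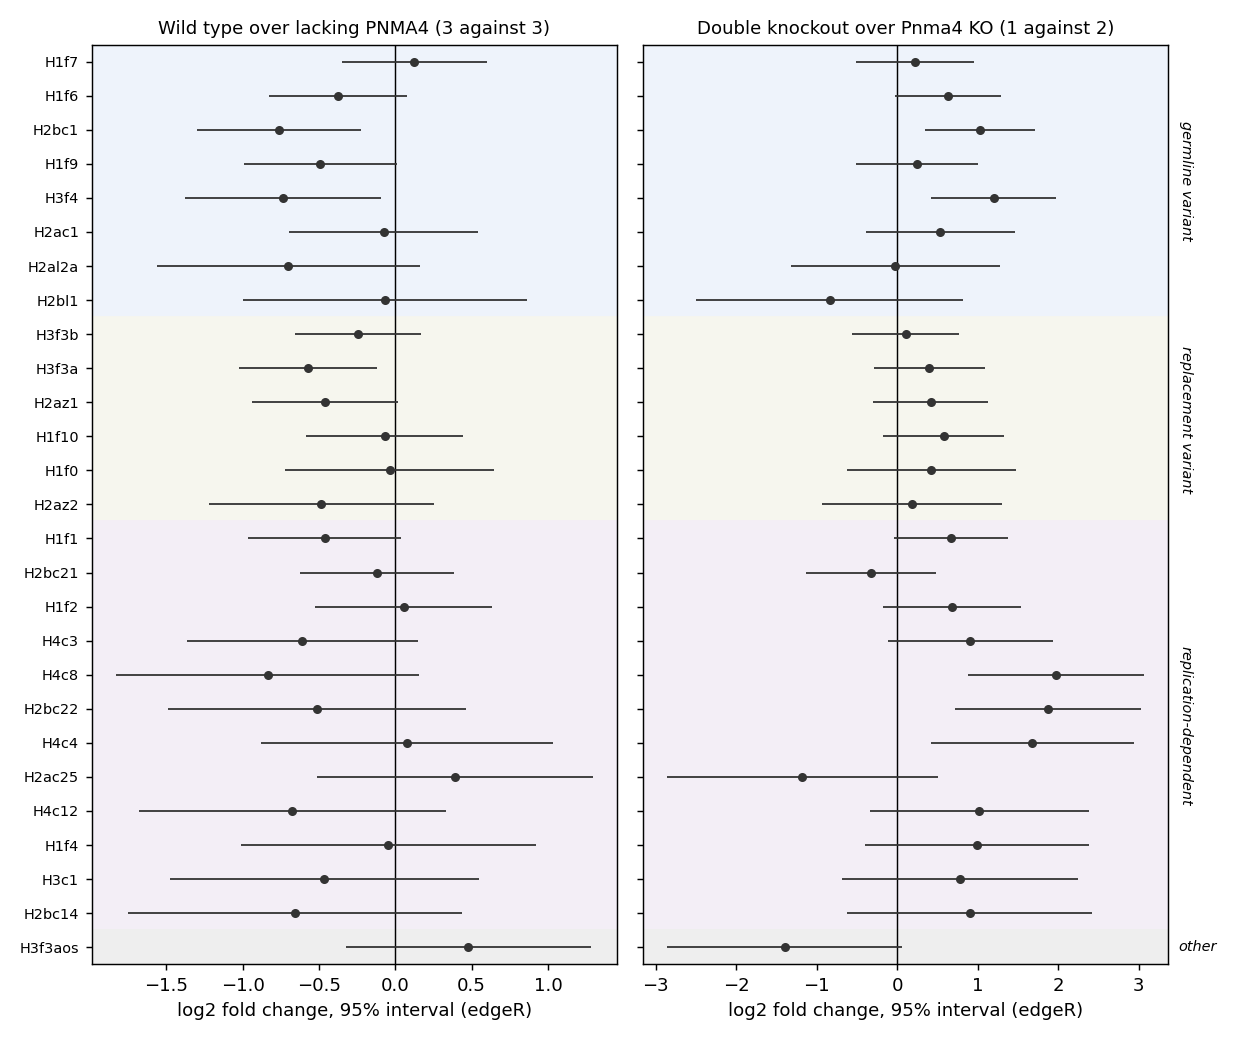
Log2 fold changes from edgeR with 95% intervals derived from its F statistic, for the 27 tested histone genes. They are shown as wild type over lacking PNMA4 (left) and as double knockout over Pnma4 KO (right). Most points on the left lie below 0 and most on the right above 0, with the widest intervals in replication-dependent and other low-count genes, and no gene passed the adjusted threshold in either panel.

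Among germline linker histones, H1f7 is a spermatid H1 needed for normal nuclear condensation. It stood at 210.8, 140.1 and 110.8 CPM in wild type replicates 1 to 3, at 114.9 and 151.3 CPM in the Pnma4 KO libraries, and at 155.8 CPM in the double knockout. The groups overlapped, the highest and lowest libraries were both wild type, and the log2 fold change was 0.12 ± 0.23 (SE). H1f6, the testis H1 of spermatocytes, had 64.7, 56.4 and 56.1 CPM in wild type and 73.9, 56.1 and 100.3 CPM in the libraries lacking PNMA4, the double knockout last. Pnma4 KO replicate 2 was level with wild type, and the log2 fold change was -0.37 ± 0.22, or -0.14 without the double knockout. H1f9, a linker-like histone of spermatids, had 25.8, 21.4 and 22.1 CPM in wild type and 40.6, 21.6 and 36.1 CPM in the other group, where one Pnma4 KO library again matched wild type. Its log2 fold change was -0.49 ± 0.24, and none of these linker genes was called.

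The testis H2B gene H2bc1, whose product replaces ordinary H2B from meiosis on, had the lowest p of all members. It had 49.1, 35.0 and 56.1 CPM in wild type, 67.6 and 51.0 CPM in the Pnma4 KO libraries and 120.4 CPM in the double knockout. The double knockout was the highest library, and Pnma4 KO replicate 2 fell inside the wild type range. The log2 fold change was -0.76 ± 0.26 (unadjusted p = 0.00752, adjusted p = 1.00, edgeR), and -0.35 without the double knockout. Its divergent partner H2ac1, the testis H2A, was flat at 7.10, 7.55 and 6.91 CPM in wild type and 8.25, 5.57 and 9.70 CPM in the libraries lacking PNMA4, with a log2 fold change of -0.08 ± 0.30. The ratio of H2bc1 to H2ac1 was 6.93, 4.64 and 8.11 in wild type and 8.19, 9.15 and 12.4 in the other libraries. The groups were separated in this ratio only narrowly, at 8.11 against 8.19, and it rests on 26 to 59 counts of H2ac1 per library. The ratio was formed after the values were seen and was not tested. Divergent pairs of H2A and H2B genes were sought among members with a promoter entry, so genes without one, such as H2bc21, were left out. Of 8 such pairs with starts under 400 bases apart, this one included, the H2B gene had more reads in 5. In the other pairs no gene had a mean above 3.48 CPM.

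H3f4, the testis H3, had 14.7, 14.1 and 11.4 CPM in wild type, 21.9 and 10.7 CPM in the Pnma4 KO libraries and 36.1 CPM in the double knockout. Its libraries lacking PNMA4 thus spanned both sides of wild type. The log2 fold change was -0.73 ± 0.31 (unadjusted p = 0.0269, adjusted p = 1.00, edgeR) and -0.25 without the double knockout.

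H2al genes encode short H2A variants of late spermatids that take part in the exchange for protamines, and 10 had a count. H2al2a, the member tested, had 4.47, 1.53 and 3.23 CPM in wild type and 6.66, 3.43 and 4.68 CPM in the libraries lacking PNMA4. The groups overlapped, and the log2 fold change was -0.70 ± 0.42. The sum over all 10 genes came to 4.93 ± 1.57 CPM (SD, n = 3) for wild type against 7.75 ± 1.00 CPM (SD, n = 3), resting on 22 to 49 counts per library. H2al3, in the same family, was read 5, 9 and 3 times in wild type against 3, 17 and 4 times without PNMA4. The X-linked copies H2al1m and H2al1n stayed at or under 5 counts in any library, H2al1i at or under 1, and H2al1k had 3 counts in wild type and 0 in the other group. H2ab3, a short H2A of the testis, had 5 counts in wild type replicate 2 and at most 1 elsewhere. H2bl1, a spermatid H2B, had 2.10, 2.43 and 1.54 CPM in wild type and 2.86, 2.14 and 1.34 CPM in the other group, so that the double knockout was its lowest library.

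All 6 tested replacement variants had negative estimates, but without the double knockout H1f10 (0.13) and H1f0 (0.09) were positive. The sum over the 7 genes with a count was 209.2, 185.6 and 220.2 CPM in wild type and 238.6, 239.6 and 282.9 CPM in the libraries lacking PNMA4, with no overlap. As a share of unscaled counts the groups overlapped, at 0.0213, 0.0237 and 0.0235% against 0.0240, 0.0263 and 0.0177%, the last in the double knockout. H3f3a and H3f3b encode the same H3.3 protein. H3f3a had 35.7, 26.7 and 33.9 CPM in wild type and 49.2, 37.7 and 56.8 CPM in the libraries lacking PNMA4, a log2 fold change of -0.57 ± 0.22 (unadjusted p = 0.0159, adjusted p = 1.00, edgeR). H3f3b had 120.4, 112.6 and 141.6 CPM in wild type and 139.3, 148.9 and 155.2 CPM in the other group, where wild type replicate 3 reached into the range of the latter, and its log2 fold change was -0.24 ± 0.20. The antisense RNA H3f3aos had the opposite sign to H3f3a, 0.48 ± 0.39, with 4.21, 4.09 and 6.91 CPM in wild type and 5.08, 4.00 and 1.67 CPM in the other group.

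H2az1, encoding H2A.Z of promoter nucleosomes, had 23.7, 16.8 and 21.1 CPM in wild type and 26.0, 24.7 and 33.8 CPM in the libraries lacking PNMA4. On the TMM scale the groups were separated by about 1 CPM, but not as shares of unscaled counts, and the log2 fold change was -0.46 ± 0.23. Its paralog H2az2 had 3.42, 2.94 and 4.76 CPM in wild type and 3.81, 5.86 and 5.68 CPM in the other group, with overlap. The linker variants H1f10 and H1f0 overlapped between the groups, with log2 fold changes of -0.07 ± 0.25 and -0.04 ± 0.33.

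Replication-dependent genes summed to 78.3, 82.0 and 104.8 CPM in wild type, to 108.8 and 89.4 CPM in the Pnma4 KO libraries and to 160.5 CPM in the double knockout. On this scale the double knockout alone stood clear of the wild type range by more than the spread within it. As a share of unscaled counts it lay inside that range, at 0.0100% against 0.00796, 0.0105 and 0.0112% in wild type. The log2 ratio of the group means was -0.44 for these genes and -0.27 for the summed variants, and without the double knockout -0.17 and -0.12. With no scaling factors the ratios were -0.05 and 0.07. Relative to the variants, replication-dependent reads had a ratio of 0.172 ± 0.0395 in wild type and 0.188 ± 0.025 in libraries lacking PNMA4 (SD, n = 3 each). In precipitates of whole testis, fewer cells of a type and less RNA per cell cannot be told apart.

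**Figure D3:**
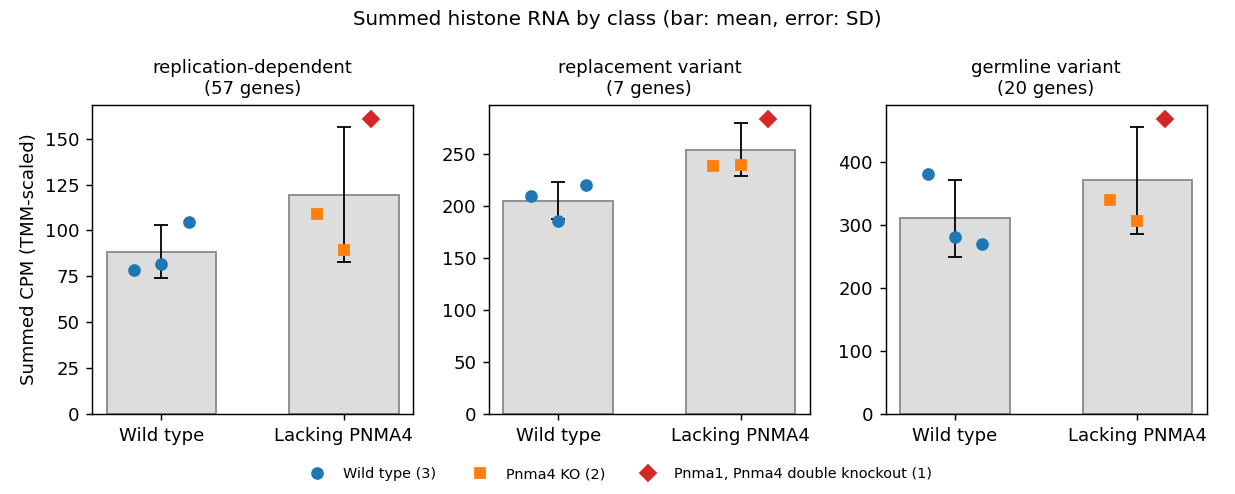
Summed CPM of replication-dependent, replacement and germline histone genes in wild type and in libraries lacking PNMA4, with points for libraries, bars for means and error bars for SD (n = 3). On this TMM scale the double knockout is the highest library in each class, at 160.5, 282.9 and 467.5 CPM, but as a share of unscaled counts it is the highest in none.

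The replication-dependent linker gene H1f1 had 15.8, 17.3 and 17.8 CPM in wild type and 20.9, 18.9 and 31.4 CPM in the libraries lacking PNMA4, a log2 fold change of -0.46 ± 0.24. H1f2, another cluster H1, had 9.99, 9.98 and 8.45 CPM in wild type and 8.89, 6.86 and 12.4 CPM in the other group. Both of its Pnma4 KO values lay at or below those of most wild type libraries, unlike H1f1. H2bc21, an H2B gene of the chromosome 3 cluster, had 12.3, 16.0 and 20.0 CPM in wild type and 18.4, 19.1 and 15.1 CPM in the other group, with a log2 fold change of -0.12 ± 0.25. H2ac25 was the single tested H2A copy, and its estimate of 0.39 ± 0.44 was the second highest of the 27. The most negative estimate among all tested members belonged to the H4 gene H4c8, at -0.84 ± 0.48, but it was 0.04 without the double knockout, whose 10.7 CPM lay far above the 1.66 to 3.53 CPM of the other libraries. H4c3 and H4c12 stood at -0.61 ± 0.37 and -0.67 ± 0.49 (-0.28 and -0.31 without that library), and H4c4 at 0.08 ± 0.46 (0.75 without it). All H4 genes encode the same protein. The 45 replication-dependent genes that did not pass the filter had at most 18 counts in a library and summed to 71, 164 and 181 counts for wild type against 103, 176 and 153 without PNMA4.

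The double knockout also lacks Pnma1, unlike the Pnma4 KO libraries. Since it is 1 library, the loss of Pnma1 cannot be told apart from other traits of that preparation. As 1 library against 2, its contrast assumes that it varies like the other groups. This contrast shares its libraries with the one above. No histone gene passed edgeR's adjusted threshold. Over all genes, 5 (0.0373%) were called higher and 5 (0.0373%) lower in the double knockout, and the count of histone genes was 0 of 27. At an unadjusted p under 0.05 there were 5 members in edgeR (18.5%, beside 6.19% of all genes), 5 in DESeq2 (18.5%, beside 3.00%) and 8 in limma-voom (29.6%, beside 7.94%). The median log2 difference, double knockout over Pnma4 KO, was 0.90 for replication-dependent members, 0.40 for variants and -0.01 for all genes. With no scaling factors the median gene stood at -0.76, the replication-dependent median at 0.15 and the variant median at -0.35, so the variants changed sign while remaining 0.41 above the median gene. The double knockout was the highest of the 6 libraries in 19 of 27 members (70.4%), against 22.8% of all tested genes.

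Among the histone genes H4c8 gave the lowest p of this contrast. It had 3.42, 1.66 and 3.53 CPM in wild type, 2.22 and 3.00 CPM in the Pnma4 KO libraries and 10.7 CPM in the double knockout, from 32 counts there. The log2 difference was 1.98 ± 0.54 with an adjusted p of 0.233 in edgeR and 1.95 with an adjusted p of 0.0384 in limma-voom with quality weights, the single call of a member by any tool. In that contrast limma-voom called 70 genes over the whole table against 10 in edgeR, 35 of them (0.261%) higher in the double knockout. Over 12 settings its adjusted p ran from 0.0384 to 0.992. The H2B gene H2bc22 had 2.63, 2.56 and 2.92 CPM in wild type, 3.17 and 1.57 CPM in the Pnma4 KO libraries and 8.03 CPM in the double knockout. As in H4c8, the lone library exceeded all others by more than their whole range. Its log2 difference was 1.87 ± 0.57 (adjusted p = 0.338, edgeR). H4c4 was at 1.68 ± 0.62 (adjusted p = 0.566), H3f4 at 1.20 ± 0.38 (adjusted p = 0.389) and H2bc1 at 1.03 ± 0.33 (adjusted p = 0.422), all in edgeR. H2ac25, H2bl1 and H3f3aos were among the exceptions, with differences of -1.18 ± 0.82, -0.84 ± 0.81 and -1.40 ± 0.71.

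By histone type, the replication-dependent sums of the double knockout over the mean of the other 5 libraries were 2.33 for H4, 2.00 for H3, 1.66 for H2A, 1.59 for H1 and 1.45 for H2B. Germline variants stood at 1.48 and replacement variants at 1.29. H4 copies summed to 44.5 CPM in the double knockout and to 13.8 to 25.7 CPM elsewhere, so they exceeded the other libraries beyond their range, as did each of the other types on this scale. As shares of unscaled counts the double knockout stood at 1.35 times the mean of the others for H4 and 1.15 for H3, and below it for H2A (0.953), H1 (0.909) and H2B (0.835). Germline variants were then at 0.854 and replacement variants at 0.745, the latter below every other library. On the TMM scale the germ cell lists stayed near the other libraries. Their ratios were 1.18 for spermatogonia, 0.949 for spermatocytes, 1.07 for round spermatids and 0.975 for elongating spermatids, and 26 S phase genes stood at 1.05. The double knockout was still the highest library for spermatogonia, at 474.9 against 353.9 to 460.6 CPM. Ddx4 alone made up 371.9 CPM of that sum. It was also highest for round spermatids, at 343.8 against 285.7 to 338.0 CPM. As a share of unscaled counts, each germ cell list and the S phase list was lowest in the double knockout. All 10 genes of each germ cell list had counts, so the defining markers of the labelled tissue were present.

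On the TMM scale, Leydig and Sertoli cell markers stood high in this library, as the histone genes did, while other somatic lists were mixed gene by gene. The 10 Leydig cell markers summed to 468.5 CPM in the double knockout and to 187.7 to 238.0 CPM in the other 5 libraries, with 9 of 10 tested genes highest there. The 10 Sertoli cell markers summed to 431.7 against 183.2 to 287.5 CPM, with 8 of 8 tested genes highest there. None of these markers was at 0 over all libraries. Macrophage and blood markers were at 19.4 against 8.95 to 14.0 CPM, but only 1 of 3 tested genes was highest there. Peritubular and vascular markers were at 73.9 against 45.2 to 62.3 CPM, with 3 of 6 tested genes highest there. As shares of unscaled counts, the double knockout was the highest library among these lists for Leydig markers alone, with 1401 of 4781490 counts. Its 1291 Sertoli counts were a smaller share than the 1997 of 6118126 in wild type replicate 2. Its unscaled share of peritubular and vascular markers was the lowest of all libraries. Epididymal genes summed to 23.2, 15.1 and 29.4 CPM in the libraries lacking PNMA4 and 7.80 to 11.6 CPM in wild type, with Defb20 and Lcn5 at 0 and Crisp1 called lower in wild type (log2 fold change -3.57 ± 0.56, adjusted p = 0.00244, edgeR). The part of these markers in the histone values was not tested.

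**Figure D4:**
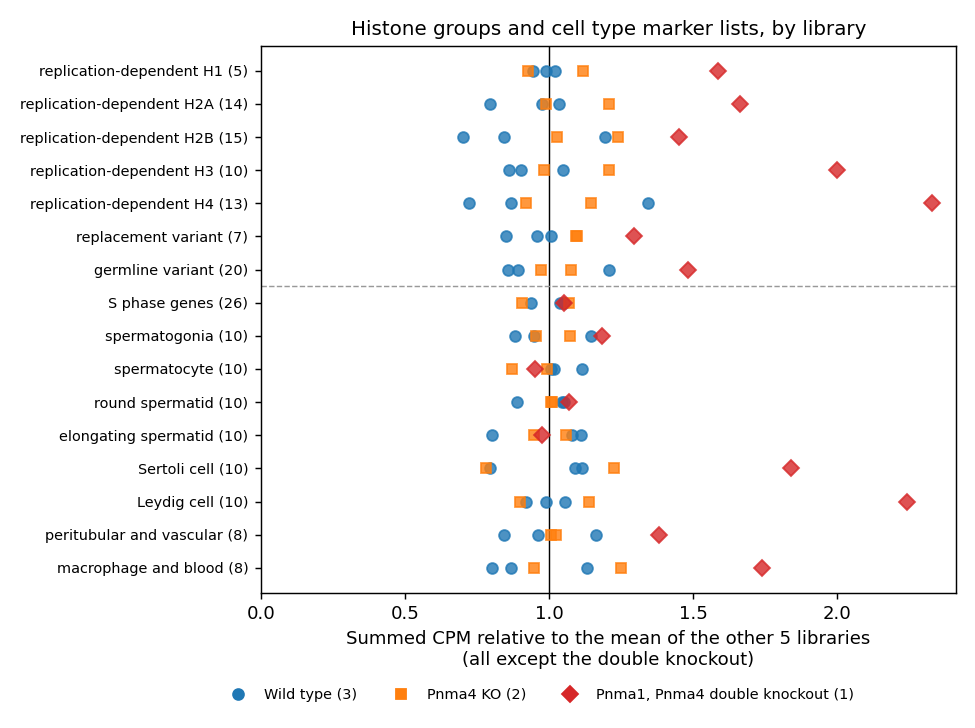
Summed CPM of histone groups (above the dashed line) and of S phase and cell type marker lists (below it) in each library, divided by the mean of the 5 libraries other than the double knockout, with the number of genes in brackets. The double knockout lies at 1.29 to 2.33 in the histone groups, at 0.949 to 1.18 in the S phase and germ cell lists, and at 1.84 and 2.24 in Sertoli and Leydig cell markers, all on the TMM scale, and unscaled its histone groups lie at 0.745 to 1.35.

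Partners of the histone genes gave no calls in either contrast. Of 15 tested genes of histone mRNA transcription and 3′ end processing, 0 were called in either direction, 10 had positive estimates and the median log2 fold change of wild type over lacking PNMA4 was 0.17. Sympk, a scaffold of the cleavage machinery, was at 0.23 ± 0.22, and Upf1, which takes part in histone mRNA decay, at 0.24 ± 0.21. Among 26 histone chaperones 0 were called, with a median of 0.08. Nasp, a chaperone of linker histones and H3 and H4, had 894.5, 526.2 and 701.5 CPM in wild type and 499.5, 744.3 and 599.9 CPM in the other group, where the spread within groups exceeded the difference.

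The 19 genes of the exchange of histones for protamines had a median of 0.05 and 0 calls. Of these, Psme4, an activator of a proteasome that degrades acetylated histones, was at -0.17 ± 0.24, and Chd5, a chromatin remodeller of spermatids, at 0.27 ± 0.24. The 22 tested S phase genes had a median of -0.03 and 0 calls, with the topoisomerase gene Top2a at -0.02 ± 0.22 and Uhrf1, of maintenance methylation, at 0.11 ± 0.21. Of 6 detected histone genes named outside the symbol rule, 4 were tested and 0 called, with a median of -0.30. H2ax, the variant phosphorylated at DNA breaks, was at -0.24 ± 0.24 and Macroh2a1 at 0.07 ± 0.23. In the double knockout 1 of 15 processing genes (6.67%) and 3 of 26 chaperones (11.5%) were highest of the 6 libraries, below the 22.8% of all genes, while the histone members were at 70.4%. That difference between lists is a description and was not tested.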

How the data were processed

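The authors deposited 1 table of raw counts per Ensembl gene ID with symbols, used unchanged. The submitters' processing notes name the build GRCm38 and, with no roles, STAR 2.5.2b, featureCounts, bcl2fastq 2.20 and DESeq2. Counts were tested in edgeR 4.0.16 (R 4.3.3) with filterByExpr (minimum count 10, minimum total 15), TMM scaling, the quasi-likelihood F test and Benjamini-Hochberg adjustment at 0.05 over 13413 genes. A positive log2 fold change means more in wild type. A second fit took the 3 genotypes as groups. DESeq2 1.42.0, limma 3.58.1 (voom with quality weights), other scalings and filters, a replicate block and leaving out each library were alternatives. Intervals are 95%. The Wilson interval covers the sampling of reads in 1 library, and neither molecules nor the spread between libraries. The edgeR intervals and the p-values rest on the spread between lysates that the design text calls biological replicates. In wild type against lacking PNMA4, that spread also holds the difference between the double knockout and the Pnma4 KO libraries. In the second fit the lone double knockout library adds no spread of its own. No library pair agreed within sampling noise (chi-square per gene at least 8.60). The double knockout (38.0 to 142.6 against each other library) and wild type replicate 2 (27.6 to 142.6) stood farthest apart.

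Coordinates and promoters came from RefSeq tables of GRCm38.p6, in which 79 of 86 members were found by symbol. Members were classed by symbol. Named were all tested variants, the 10 replication-dependent members of highest CPM, the 4 largest estimates each way, up to 6 untested germline members, and of each pathway list the called genes or the 2 of highest CPM. H3c1 was named for its promoter alone, and members outside this rule only in counts. The members and lists were chosen with earlier results of these data known. On simulated data for wild type against lacking PNMA4 (13413 genes, 200 changed, 10 simulations), the edgeR step recovered 45.8% of 2-fold and 91% of 4-fold changes, with 3.84% false calls. The changed genes were drawn from all tested genes, and no library was made to stand apart as the double knockout does. Recovery among the histone members, many of them with low counts, was not measured. Replicate numbers did not pair the groups (correlations of deviations 0.037, -0.064 and 0.079).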

Additional observations from a re-analysis of the deposited data

How the results depend on the processing

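No histone gene was called in wild type against lacking PNMA4 under any of the tools, scalings, filters, the replicate block or the libraries left out, the lowest adjusted p being 0.28 without Pnma4 KO replicate 2 and 1.00 in the edgeR test of all 6 libraries. With no scaling factors the variant median went from -0.37 to -0.004, and the log2 ratio of sums to -0.053 for replication-dependent genes and 0.068 for variants. The cause was not tested beyond the factor of 0.628 in the double knockout. With the replicate block the medians were -0.43 and -0.34 and the ratios of sums -0.40 and -0.26. Numbers shared between groups pair no animals, and the block changed no call. In the double knockout against Pnma4 KO, limma-voom called 1 member, H4c8, among 70 genes in all (0.522%), and the other settings 0 members. Over 340 alternatives for the 25 tested members of the naming rule, 31 changed sign, in 12 members, 6 of them without the double knockout, and 0 became called. The replication-dependent median was -0.29 both in limma-voom and under the stricter filter, and the variant median -0.23 without a filter. Counting H1f6, H2ac1 and H2bc1 with the replication-dependent genes gave medians of -0.46 and -0.35. Leaving out H3f3aos, an alternative chosen after seeing the data, gave a variant median of -0.42. The low depth of replication-dependent genes limits these results: 45 of 57 were not tested, and of the 12 tested, 3 had an interval within 1 log2 unit of 0.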
